A study of Rattus norvegicus with 12 samples.

Results

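Amino acids, creatine, taurine and most small neurotransmitters cross membranes through carriers of 7 solute carrier families, SLC1, SLC3, SLC6, SLC7, SLC36, SLC38 and SLC43, and the mRNA levels of these carriers were examined in adult rat ventricular myocytes (ARVMs) with and without added NR4A2. The members were chosen by symbol alone, as all rows whose gene name begins with one of these family names in the lower-case rat form (Slc1a, Slc3a, Slc6a, Slc7a, Slc36a, Slc38a or Slc43a) followed by a digit. This gave 66 of 18752 RefSeq transcripts, which belong to 59 of 17301 gene names. Of these genes, 58 encode carriers or carrier subunits. The other, Slc7a6os, is named after its neighbor Slc7a6 as an opposite-strand gene without encoding a carrier, so it was kept in the counts and described only once.

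ARVMs are heart muscle cells isolated with collagenase from the ventricles of male Sprague-Dawley rats. They were transduced in culture, at 50 MOI (multiplicity of infection), with Ad-GFP, a control adenovirus that encodes enhanced green fluorescent protein, or with Ad-h-NR4A2, which encodes full-length human NR4A2 under the cytomegalovirus promoter. Both groups therefore carried an adenovirus, and RNA was collected 48 h after transduction from 6 samples of each group, numbered 24 to 29 in both. Levels are FPKM, the fragments on a transcript per kilobase of its length and scaled to all mapped fragments. NR4A2 itself is an orphan nuclear receptor, a transcription factor that is induced in the heart by β-adrenergic stimulation.

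The rat Nr4a2 transcript, to which the human transgene contributes as far as its reads align, was at 0.884 ± 0.309 FPKM (SD, n = 6) in Ad-GFP samples and at 524 ± 70.3 in Ad-h-NR4A2 samples. Steps between low FPKM values implied a depth of 18800000 to 28000000 fragments for the control group and of 21500000 to 27300000 for the NR4A2 group. The 7 cardiomyocyte markers summed to 29616 to 36953 FPKM in Ad-GFP and 26474 to 31411 in Ad-h-NR4A2 samples, with Ryr2 and Pln called lower and none higher. Without a fold limit, 5 of the 7 (71.4%, beside 40.9% of all genes) had an adjusted p below 0.05 (limma), all of them lower. The median log2 fold change of this list was -0.26, beside -0.02 over all genes. The 8 macrophage markers summed to 7.46 to 18.3 and 39.5 to 51.1 FPKM, and 2 were called higher, Csf1r (10.1 against 40.2 FPKM) and Cd14, whereas Ptprc reached at most 0.0489 FPKM in any Ad-h-NR4A2 sample. The 8 nerve and glia markers summed to 3.40 to 6.56 and 16.9 to 44.3 FPKM, of which 1 was called higher, Dbh (3.27 against 29.3 FPKM), while Snap25 was at 0 in all 12 samples and Th reached at most 0.0272. Of the fibroblast, endothelial and smooth muscle lists, Col3a1 and Myh11 were called lower and Egfl7 higher, and Col1a2 was listed at 0 in all samples. The part of these markers in the carrier results was not tested.

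Carriers of these families differ in what drives them. SLC7 light chains are mostly exchangers that must pair with an SLC3 heavy chain to reach the membrane, and they trade one amino acid for another. SLC1, SLC6 and SLC38 carriers use the sodium gradient and can concentrate their substrate in the cell, and SLC36 carriers use protons. In heart muscle, taurine and creatine are held at high levels by uptake from blood, and glutamine and glutamate serve as fuel, as nitrogen carriers and as partners in exchange. Leucine and arginine that enter the cell also signal to the mTORC1 kinase, which promotes protein synthesis and growth.

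Among the more abundant carriers, the creatine carrier Slc6a8, the leucine carrier Slc7a5 and the glutamine carrier Slc38a3 were lower with NR4A2. Another glutamine carrier, Slc38a1, was higher. Log2(FPKM + 0.1) was compared with limma over all genes above 0 in all 12 samples, and a gene was called when its Benjamini-Hochberg adjusted p was below 0.05 and the group means of FPKM differed at least 1.5-fold. Of the 59 members, 33 could be tested, 32 of them carriers, and 11 of the 33 (33.3%) were called, 5 higher and 6 lower. Over all genes tested, 15.2% were called, 7.94% higher and 7.24% lower. The filter keeps genes that are above 0 everywhere, so the members tested are the better expressed ones and not all members. A mean below 1 FPKM over the 12 samples was marked as a low value, which applied to 4 of the 11 called members, Slc7a2, Slc7a3 and Slc3a1 among the higher and Slc1a7 among the lower ones. Fewer cells of a type and less RNA per cell cannot be told apart in these bulk samples.

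Without the fold limit, 17 of the 33 tested members had an adjusted p below 0.05, against 40.9% of all genes. The median log2 fold change was -0.13 over the tested members and -0.02 over all genes. The values of the 2 groups did not overlap for 7 tested members, and for 21.5% of all genes. Counted by same-numbered pairs, 12 members (36.4%) were lower in all 6 pairs and 4 (12.1%) higher in all 6, beside 29.1% and 24.1% of all genes.

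**Figure D1:**
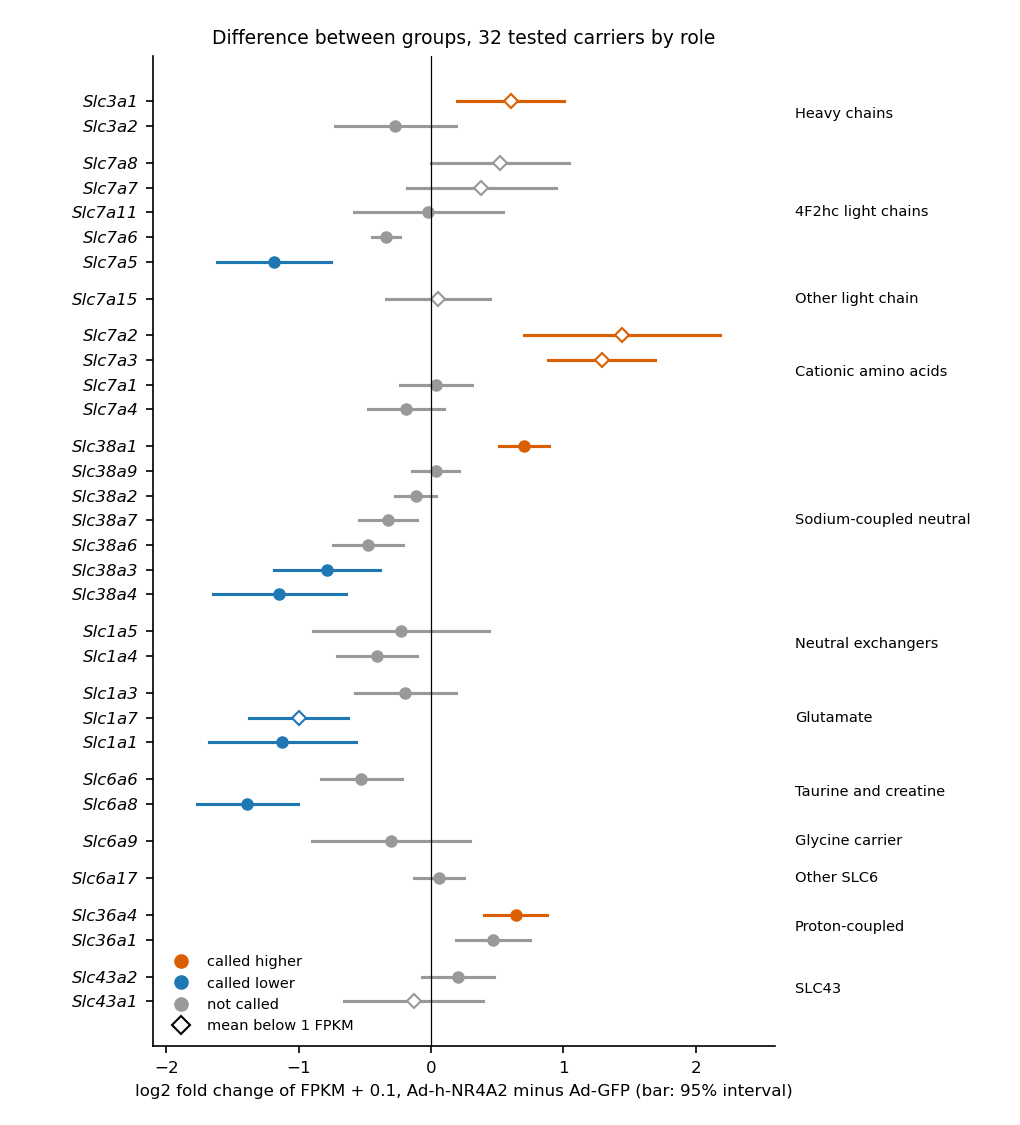
Log2 fold change of FPKM + 0.1, Ad-h-NR4A2 minus Ad-GFP, of the 32 tested carriers by role, with 95% intervals from limma. Orange marks carriers called higher, blue those called lower, grey those not called, and open diamonds a mean below 1 FPKM. The largest fall is that of Slc6a8 (-1.39), and the rises of Slc7a2 and Slc7a3 belong to carriers of low level.

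The level of the carriers rested on few genes. In Ad-GFP samples, 12 carriers had a mean of at least 10 FPKM, and the 4 highest, Slc38a2, Slc3a2, Slc6a8 and Slc38a1, held 74.8% of the summed mean FPKM of all 58 carriers. That sum, with each carrier given by its transcript of highest mean, was 740 FPKM in Ad-GFP and 613 in Ad-h-NR4A2 samples. At the other end, 34 of the 59 members had a mean below 1 FPKM, 8 of which could still be tested.

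**Figure D2:**
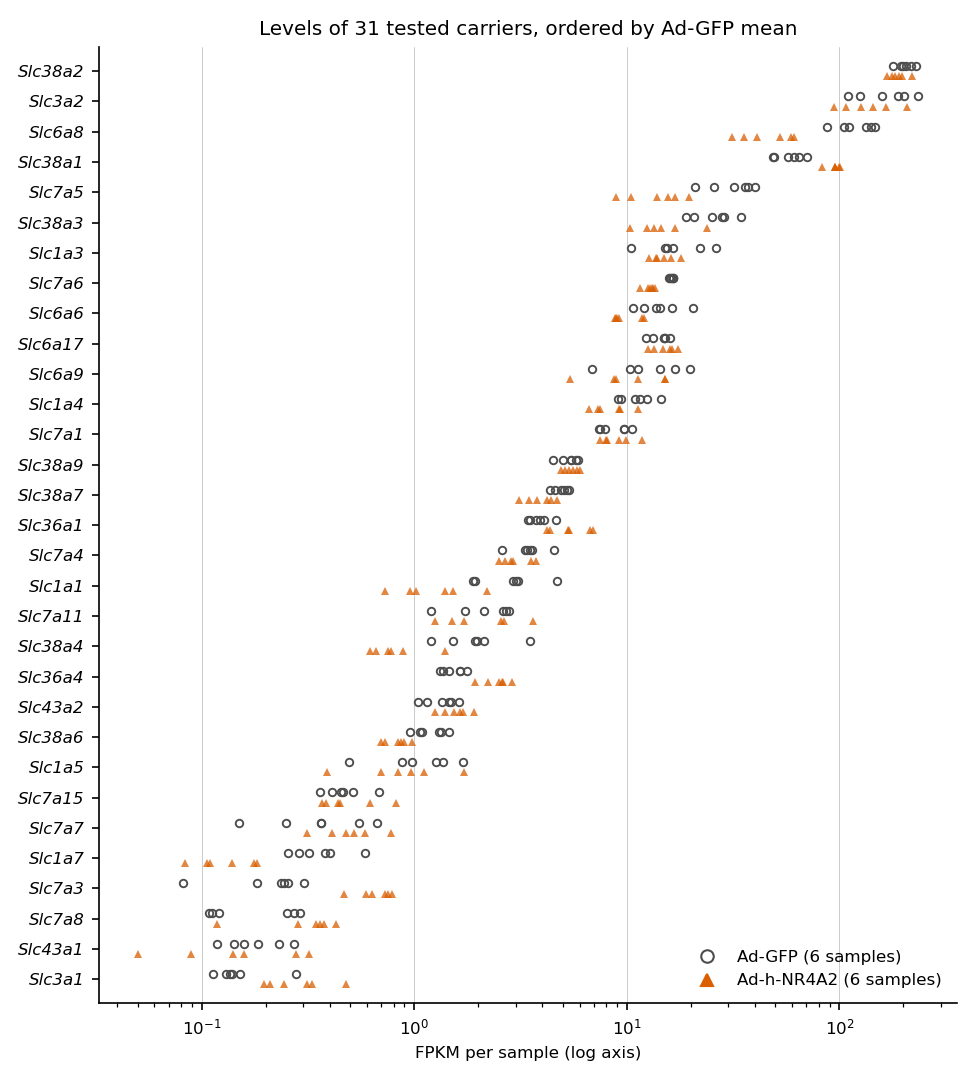
FPKM per sample on a log axis for 31 tested carriers, ordered by their Ad-GFP mean, with open circles for the 6 Ad-GFP and triangles for the 6 Ad-h-NR4A2 samples. Slc7a2, whose transcript estimates are described in the text, is not plotted. The triangles lie wholly left of the circles for Slc6a8, Slc7a5, Slc7a6 and Slc1a7 and wholly right for Slc38a1, Slc36a4 and Slc7a3.

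Among carriers above 30 FPKM in Ad-GFP samples, Slc6a8, Slc7a5 and Slc38a1 were the 3 called. The 250 bases before their transcription starts are shown because these 3 abundant carriers were called, in opposite directions. They come from RefSeq on the GRCr8 build, 5' to 3' on the strand of the gene, and capitals mark letters of the amino acid response element, TGATGNAA.
Slc38a1, chr7:129681402-129681651, minus strand: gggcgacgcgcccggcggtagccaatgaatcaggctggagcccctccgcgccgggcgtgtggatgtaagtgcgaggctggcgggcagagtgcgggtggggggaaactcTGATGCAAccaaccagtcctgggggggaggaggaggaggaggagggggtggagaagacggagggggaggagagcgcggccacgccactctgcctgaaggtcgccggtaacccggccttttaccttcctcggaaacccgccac
Slc6a8, chrX:156535767-156536016, plus strand: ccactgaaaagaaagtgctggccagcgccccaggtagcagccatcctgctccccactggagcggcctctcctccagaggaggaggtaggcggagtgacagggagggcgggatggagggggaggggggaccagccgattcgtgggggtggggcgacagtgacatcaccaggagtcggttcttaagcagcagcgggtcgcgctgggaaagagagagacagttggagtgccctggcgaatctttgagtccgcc
Slc7a5, chr19:66872413-66872662, minus strand: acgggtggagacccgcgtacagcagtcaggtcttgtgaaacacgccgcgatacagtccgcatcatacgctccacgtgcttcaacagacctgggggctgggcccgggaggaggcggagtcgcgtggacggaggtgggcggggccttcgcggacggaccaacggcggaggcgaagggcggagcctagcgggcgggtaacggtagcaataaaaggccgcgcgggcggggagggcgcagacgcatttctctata
In Slc38a1, TGATGCAA begins 142 bases before the start, on the gene's own strand. Windows were found for 46 of the 59 members, 3 of which held TGATGNAA on either strand (Slc38a1, Slc1a4 and Slc7a1), compared with 3.4% of all 33469 windows. The letters AAAGGTCA, the NBRE to which NR4A receptors can bind as monomers, were in 0 of the 46 member windows on either strand and in 1.24% of all windows. A match to these letters is a description and says nothing of binding, and their absence concerns only this window.

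Slc6a8, the sodium-coupled carrier through which muscle cells take up creatine, ranged from 87.8 to 146 FPKM in Ad-GFP samples (median 122) and from 31.2 to 61.4 in the Ad-h-NR4A2 group (median 46.8). Every Ad-h-NR4A2 value lay below every Ad-GFP value, and the lowest Ad-GFP sample was still above the highest of the other group. The mean fell from 121 ± 23.0 to 46.8 ± 12.7 FPKM (SD, n = 6 each; log2 fold change -1.39, SE 0.18, limma with Benjamini-Hochberg adjusted p = 3.46e-05). An exact permutation test of the log2 values over all splits into 6 and 6 gave p = 0.00216, two-sided, the smallest that this design can give. The Rn5 locus listed for Slc6a8 is chr1:152879306-152888609, whereas the RefSeq window above lies on chromosome X. Whether reads of this gene were shared with a near-identical copy was not tested.

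Slc6a6, the taurine carrier of the same family, ranged from 10.7 to 20.4 FPKM in Ad-GFP (median 14.0) and from 8.83 to 12.0 in the Ad-h-NR4A2 group (median 9.11). It was lower in all 6 same-numbered pairs, although the groups overlapped, and its ratio of means, 0.683, did not reach the 1.5-fold limit (log2 fold change -0.53, SE 0.14, adjusted p = 0.00914, limma). It passed both limits when Ad-GFP sample 24 or 25 or Ad-h-NR4A2 sample 28 or 29 was left out, with ratios of 0.648, 0.660, 0.655 and 0.658. The betaine and GABA carrier Slc6a12 was not tested. Its fragments numbered 0 to 1 per Ad-GFP sample, 1 in all, and 2 to 10 per Ad-h-NR4A2 sample, 31 in all.

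Slc3a2 encodes 4F2hc (CD98), the heavy chain with which most SLC7 light chains pair, and was the second highest carrier. It ranged from 110 to 234 FPKM in Ad-GFP (median 174) and from 94.3 to 209 in the Ad-h-NR4A2 group (median 135), with much of that range shared. The unpaired comparison did not pass (log2 fold change -0.27, 95% interval -0.72 to 0.19, limma adjusted p = 0.336), but Slc3a2 was lower in all 6 same-numbered pairs. Fitted with a replicate block for the sample number, the SE fell from 0.21 to 0.03 and the adjusted p to 9.78e-05, and the ratio of 0.830 stayed under the fold limit.

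Slc7a5 encodes LAT1, the light chain of 4F2hc that brings leucine and other large neutral amino acids into cells in exchange for glutamine. It ranged from 20.9 to 40.1 FPKM in Ad-GFP (median 34.0) and from 8.91 to 19.5 in the Ad-h-NR4A2 group (median 14.7). The groups did not overlap, and the mean fell from 32.0 ± 7.38 to 14.2 ± 3.99 FPKM (SD, n = 6 each; log2 fold change -1.18, SE 0.20, limma adjusted p = 3.66e-04). A ratio to the more abundant Slc3a2 transcript in the same sample was chosen after the values were seen. By it, Slc7a5 stood at 0.159 to 0.255 in Ad-GFP and at 0.0826 to 0.128 in Ad-h-NR4A2 samples. These ratios did not overlap between the groups either.

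The other light chains of 4F2hc did not pass both limits. Slc7a6 (y+LAT2), an exchanger of arginine and glutamine, ranged from 15.9 to 16.6 FPKM in Ad-GFP (median 16.3) and from 11.6 to 13.6 in the Ad-h-NR4A2 group (median 13.0). The 6 Ad-GFP samples lay close together, the groups did not overlap, and the ratio was 0.790 (log2 fold change -0.34, SE 0.05, limma adjusted p = 7.56e-05). Slc7a6os, whose listed locus lies beside that of Slc7a6 without overlap (chr19:49047659-49056771 and chr19:49029315-49045949 on Rn5), averaged 22.9 ± 1.83 and 22.1 ± 1.60 FPKM. It ranged from 20.9 to 25.1 FPKM in Ad-GFP (median 22.7) and from 19.9 to 24.4 in the Ad-h-NR4A2 group (median 22.1).

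Slc7a11 (xCT), which exchanges glutamate for cystine, averaged 2.19 ± 0.631 FPKM in Ad-GFP and 2.22 ± 0.891 in Ad-h-NR4A2 samples (95% interval of the log2 fold change -0.58 to 0.54). Slc7a8 (LAT2) and Slc7a7 (y+LAT1) were low, with means of 0.193 and 0.319 and of 0.391 and 0.515 FPKM. Slc7a8 reached the limits only without Ad-h-NR4A2 sample 24 (ratio 1.87, limma adjusted p = 0.0149, against 0.102 with all samples). The facilitative leucine carriers Slc43a1 (LAT3) and Slc43a2 (LAT4) averaged 0.185 and 1.35 FPKM in Ad-GFP and 0.173 and 1.57 in Ad-h-NR4A2 samples, with adjusted p values of 0.704 and 0.222.

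The second heavy chain, Slc3a1 (rBAT), known from kidney and intestine, was called higher at a low level. It ranged from 0.113 to 0.279 FPKM in Ad-GFP (median 0.138) and from 0.196 to 0.477 in the Ad-h-NR4A2 group (median 0.278), which is 6 to 11 and 9 to 23 fragments per sample. The groups overlapped in 1 Ad-GFP sample, number 25, whose pair was the exception to a rise in the other 5 (ratio 1.87, log2 fold change 0.60, SE 0.19, limma adjusted p = 0.0200). Its usual light chain, Slc7a9, was not tested. Slc7a15, a further SLC7 light chain, was low in both groups (0.481 ± 0.111 and 0.513 ± 0.176 FPKM, limma adjusted p = 0.845).

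**Figure D3:**
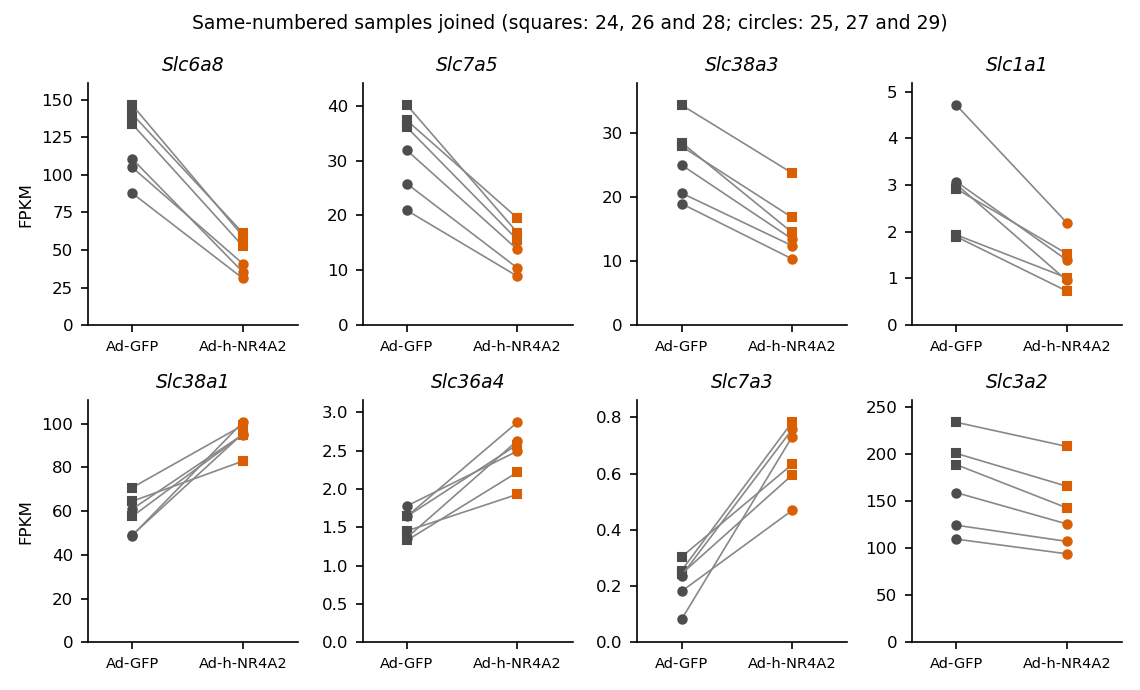
FPKM of 8 carriers in same-numbered Ad-GFP and Ad-h-NR4A2 samples, joined by lines, each panel with its own axis from 0. Squares are samples 24, 26 and 28, and circles 25, 27 and 29. All lines fall for Slc6a8, Slc7a5, Slc38a3, Slc1a1 and Slc3a2, and all rise for Slc38a1, Slc36a4 and Slc7a3.

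Of the 9 sodium-coupled neutral amino acid carriers of the SLC38 family, 7 were tested, 1 was called higher and 2 lower. Slc38a2 (SNAT2), a carrier of alanine and glutamine that cells raise when amino acids are scarce, was the most abundant carrier. It ranged from 178 to 229 FPKM in Ad-GFP (median 203) and from 167 to 220 in the Ad-h-NR4A2 group (median 186). The ranges lay largely over each other (log2 fold change -0.12, 95% interval -0.27 to 0.04, limma adjusted p = 0.213), and the replicate block gave an adjusted p of 0.0226 at the same small size.

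Slc38a1 (SNAT1), which carries the same substrates, ranged from 48.8 to 70.7 FPKM in Ad-GFP (median 59.2) and from 82.8 to 101 in the Ad-h-NR4A2 group (median 95.2). The groups did not overlap, and 5 of the 6 Ad-h-NR4A2 samples lay between 94.9 and 101 FPKM. The mean rose from 58.6 ± 8.67 to 94.6 ± 6.26 FPKM (SD, n = 6 each; log2 fold change 0.70, SE 0.09, limma adjusted p = 2.78e-05). Relative to Slc38a2 in the same sample, again a ratio chosen after the values were seen, Slc38a1 rose from a median of 0.285 to a median of 0.526. The highest Ad-GFP ratio, 0.325, lay below the lowest Ad-h-NR4A2 ratio, 0.377.

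Slc38a3 (SNAT3), a system N carrier of glutamine and histidine, ranged from 19.0 to 34.4 FPKM in Ad-GFP (median 26.5) and from 10.4 to 23.8 in the Ad-h-NR4A2 group (median 14.0). The groups overlapped, but the Ad-h-NR4A2 sample was the lower one in all 6 pairs (ratio 0.587, log2 fold change -0.79, SE 0.19, limma adjusted p = 0.00416). Slc38a4 (SNAT4), which also accepts cationic amino acids, ranged from 1.20 to 3.49 FPKM in Ad-GFP (median 1.95) and from 0.620 to 1.40 in the Ad-h-NR4A2 group (median 0.764). It was lower in all 6 pairs as well, with 1 Ad-h-NR4A2 sample, number 29, reaching into the Ad-GFP range (ratio 0.416, log2 fold change -1.15, SE 0.23, limma adjusted p = 0.00145).

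Slc38a1, Slc38a2 and Slc38a4 are neighbors on Rn5 chromosome 7, at chr7:137603303-137667386, chr7:137716131-137728300 and chr7:138083493-138105507. Of these 3 neighbors, 1 was called higher, 1 was not called and 1 was called lower. Slc38a7, a glutamine carrier of the lysosome, averaged 4.92 ± 0.395 and 3.94 ± 0.588 FPKM (ratio 0.800, limma adjusted p = 0.0213). Slc38a9, which senses arginine in the lysosome for mTORC1, ranged from 4.50 to 5.92 FPKM in Ad-GFP (median 5.46) and from 4.91 to 6.03 in the Ad-h-NR4A2 group (median 5.47), and its log2 fold change of 0.04 had a 95% interval of -0.14 to 0.21. Slc38a6, a less studied member, averaged 1.20 ± 0.195 and 0.834 ± 0.104 FPKM, a ratio of 0.693 that reached the fold limit only with quantile normalization or without Ad-GFP sample 26 (ratios 0.659 and 0.665).

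Proton-coupled carriers rose or did not pass. Slc36a4, a high-affinity carrier of proline and tryptophan, ranged from 1.33 to 1.78 FPKM in Ad-GFP (median 1.55) and from 1.93 to 2.87 in the Ad-h-NR4A2 group (median 2.54). The groups did not overlap (ratio 1.60, log2 fold change 0.64, SE 0.11, limma adjusted p = 0.000442). Slc36a1, which exports small amino acids from lysosomes, ranged from 3.43 to 4.67 FPKM in Ad-GFP (median 3.81) and from 4.22 to 6.96 in the Ad-h-NR4A2 group (median 5.33). It averaged 3.89 ± 0.451 and 5.48 ± 1.16 FPKM and was higher in all 6 pairs, with a ratio of 1.41, under the fold limit (limma adjusted p = 0.0114). Slc36a2 and Slc36a3 were not tested, and Slc36a3 was at 0 in all 12 samples.

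Of the 5 glutamate carriers, 3 were tested and 2 called lower. Slc1a1 (EAAT3), which takes up glutamate, aspartate and cysteine, ranged from 1.90 to 4.71 FPKM in Ad-GFP (median 2.97) and from 0.731 to 2.20 in the Ad-h-NR4A2 group (median 1.20). The groups overlapped, but every pair fell (ratio 0.446, log2 fold change -1.12, SE 0.26, limma adjusted p = 0.00344). Slc1a7 (EAAT5), best known from the retina, was low and ranged from 0.256 to 0.589 FPKM in Ad-GFP (median 0.351) and from 0.0837 to 0.182 in the Ad-h-NR4A2 group (median 0.125). Its groups did not overlap, on 17 to 29 and 6 to 12 fragments per sample (ratio 0.358, limma adjusted p = 0.000442).

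Slc1a3 (EAAT1) was the most abundant glutamate carrier and ranged from 10.5 to 26.2 FPKM in Ad-GFP (median 16.0) and from 12.8 to 18.0 in the Ad-h-NR4A2 group (median 14.4). The Ad-h-NR4A2 range lay inside the Ad-GFP range (95% interval of the log2 fold change -0.58 to 0.19, limma adjusted p = 0.416). Of the neutral amino acid exchangers of the same family, Slc1a4 (ASCT1) ranged from 9.08 to 14.6 FPKM in Ad-GFP (median 11.3) and from 6.65 to 11.3 in the Ad-h-NR4A2 group (median 8.37). It was lower in all 6 pairs, at a ratio of 0.754 (log2 fold change -0.41, SE 0.14, limma adjusted p = 0.0324). Slc1a5 (ASCT2), a glutamine exchanger prominent in growing cells, was near 1 FPKM in both groups (1.11 ± 0.423 and 0.957 ± 0.450, limma adjusted p = 0.594).

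Of the 5 cationic amino acid carriers, 4 were tested and 2 called higher, both at low levels. Slc7a1 (CAT1), the main arginine and lysine carrier of most cells, ranged from 7.40 to 10.6 FPKM in Ad-GFP (median 8.81) and from 7.45 to 11.8 in the Ad-h-NR4A2 group (median 8.60). The groups covered nearly the same range (95% interval of the log2 fold change -0.23 to 0.31, limma adjusted p = 0.836). Slc7a3 (CAT3) ranged from 0.0818 to 0.304 FPKM in Ad-GFP (median 0.240) and from 0.469 to 0.782 in the Ad-h-NR4A2 group (median 0.681).

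The Slc7a3 groups did not overlap, on 3 to 13 and 20 to 39 fragments per sample, and the ratio of means was 3.04 (log2 fold change of FPKM + 0.1 1.29, SE 0.19, limma adjusted p = 0.000103). Slc7a2 (CAT2) has 2 transcripts, between which the estimates traded off from sample to sample, so that the transcript used was under 0.001 FPKM in 3 Ad-GFP samples. Summed over both, Slc7a2 ranged from 0.152 to 0.274 FPKM in Ad-GFP (median 0.224) and from 0.423 to 0.614 in the Ad-h-NR4A2 group (median 0.542). The summed values did not overlap and their means differed 2.45-fold, whereas the single transcript gave a ratio of 4.49 (limma adjusted p = 3.02e-05 and 0.00422). Slc7a4, an SLC7 relative of the cationic carriers, averaged 3.48 ± 0.623 and 3.03 ± 0.491 FPKM and did not pass (limma adjusted p = 0.277).

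Among the 8 neurotransmitter carriers, only Slc6a9 (GlyT1), the glycine carrier, could be tested. It ranged from 6.87 to 19.8 FPKM in Ad-GFP (median 12.8) and from 5.42 to 15.2 in the Ad-h-NR4A2 group (median 10.1), and the ranges overlapped for the most part (log2 fold change -0.30, 95% interval -0.90 to 0.30, limma adjusted p = 0.418). In pairs it was lower in all 6, and the replicate block gave an adjusted p of 0.000348 at a ratio of 0.812. The locus listed for Slc6a9 is shared with Ccdc24, so reads of these genes may not be fully separated. Slc6a17 (NTT4), a neutral amino acid carrier of synaptic vesicles in brain, ranged from 12.3 to 16.0 FPKM in Ad-GFP (median 14.9) and from 12.5 to 17.3 in the Ad-h-NR4A2 group (median 15.5). It was the only tested carrier of the SLC6 amino acid and orphan group and did not pass (95% interval of the log2 fold change -0.13 to 0.25, limma adjusted p = 0.623).

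The 26 members that were not tested stayed under 0.5 FPKM in every sample, with a highest value of 0.415, for the proline carrier Slc6a7. One fragment was worth 0.00527 to 0.0470 FPKM for these genes, according to transcript length and depth. The GABA carrier Slc6a11 and the proton-coupled Slc36a3 were at 0 in all 12 samples, which allows up to 3 fragments, or up to 0.102 FPKM, in a sample. The noradrenaline carrier Slc6a2 had 7 fragments over the 6 Ad-GFP and 0 over the 6 Ad-h-NR4A2 samples, the dopamine carrier Slc6a3 1 and 0, and the serotonin carrier Slc6a4 3 and 3. None of these 3 carriers passed in a fit without the filter (limma adjusted p = 0.0578, 0.635 and 0.92). With so few fragments this does not show that they were unchanged. In that fit, 2 of the members that were not tested passed both limits, Slc6a12 higher (limma adjusted p = 0.00254) and Slc6a7 lower (adjusted p = 0.0367, 3 to 29 against 0 to 7 fragments per sample). Slc6a12 was at 0 in 5 of the 6 Ad-GFP samples, and Slc6a7 in 3 of the 6 Ad-h-NR4A2 samples. There the added 0.1 FPKM alone sets the log2 value, so these p values rest on that floor.

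Several carriers shared a pattern over the sample numbers, chosen after the values were seen and given as a description. Samples 24, 26 and 28 held the 3 highest values in both groups for 8 of the 25 tested members with a mean of at least 1 FPKM (32%), namely Slc1a4, Slc38a3, Slc3a2, Slc6a8, Slc6a9, Slc7a1, Slc7a11 and Slc7a5. Over all genes at that level the share was 9.71%. Of 12 genes of the amino acid response, the program that the transcription factor ATF4 runs when amino acids are short, 8 had the same pattern (66.7%), Atf4, Atf5, Ddit3, Trib3, Asns, Chac1, Sesn2 and Ppp1r15a. The labels do not say what the numbers stand for, and this spread between samples is shared by both groups.

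Beside the carriers, 4 lists of related genes were described, with 96 genes of which 77 could be tested and 8 (10.4%) were called, 4 higher and 4 lower, beside 15.2% of all genes. Of 36 tested enzymes that use the carried substrates, 4 were called higher and 1 lower, with a median log2 fold change of 0.04. Got1, the cytosolic aspartate aminotransferase that links glutamate and aspartate, ranged from 228 to 326 FPKM in Ad-GFP and from 466 to 678 in Ad-h-NR4A2 samples, without overlap. Odc1, the ornithine decarboxylase of polyamine synthesis, rose 1.79-fold, Cdo1, the cysteine dioxygenase on the way to taurine, 2.03-fold, and Phgdh, the first enzyme of serine synthesis, 1.58-fold. Maoa, the mitochondrial enzyme that degrades noradrenaline and serotonin, fell from 582 ± 133 to 294 ± 68.4 FPKM (SD, n = 6 each) without overlap.

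Of 12 tested amino acid response genes, 2 (16.7%, beside 15.2% of all genes) were called, Ddit3 and Trib3, both lower, with ratios of 0.518 and 0.547. Without the fold limit these 2 were also the only ones with an adjusted p below 0.05 (16.7%, beside 40.9% of all genes). None was called higher, with 0 higher at an unadjusted p below 0.05 (limma). Atf4 and Asns, by contrast, had ratios of 0.956 and 0.990 and were not called, and the median of the list was -0.14. Of 23 tested genes of amino acid sensing at mTORC1, none was called in either direction, although 10 (43.5%, beside 40.9% of all genes) had an adjusted p below 0.05 and 11 an unadjusted p below 0.05 (limma, median log2 fold change -0.08). Of 7 tested further amino acid, peptide and monoamine carriers, 1 was called, the vesicular glutamate carrier Slc17a7, at 6.84 ± 1.67 against 3.05 ± 0.994 FPKM (SD, n = 6 each). The vesicular monoamine carriers Slc18a1 and Slc18a2 were not tested, with 1 fragment each over the 6 Ad-GFP samples and 30 and 34 over the 6 Ad-h-NR4A2 samples. Per sample they had 0 to 1 fragment in Ad-GFP and 2 to 12 (Slc18a1) or 1 to 12 (Slc18a2) in Ad-h-NR4A2. In the fit without the filter both were called higher (limma adjusted p = 0.00193 and 0.0135). Each was at 0 in 5 of the 6 Ad-GFP samples, so these p values also rest on the floor set by the added 0.1 FPKM.

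**Figure D4:**
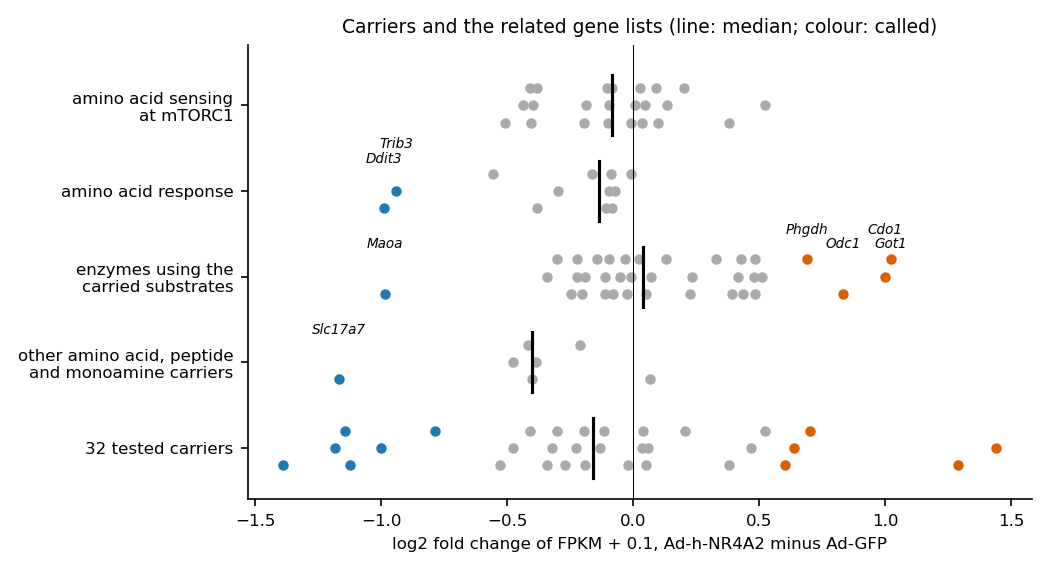
Log2 fold change of FPKM + 0.1, Ad-h-NR4A2 minus Ad-GFP, of each tested gene of 4 related lists and of the 32 tested carriers, with a black line at the median of each list. Orange and blue points were called higher and lower, and the called genes of the related lists are named. The medians of the related lists run from -0.40 for the other carriers to 0.04 for the enzymes, and that of the carriers is -0.16.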

How the data were processed

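RNA sequencing of 12 ARVM samples was used, 6 per virus, grouped by their labels. The authors prepared stranded, paired-end mRNA libraries, sequenced them in 1 pooled run, aligned reads to Rn5 with STAR and calculated FPKM per RefSeq transcript with Cufflinks. The strand setting of the counting is not given in the sources used here. FPKM values were used as deposited by the authors. Their 8 values of failed status were kept, and 1493 values above 0 but below 1e-06 counted as above 0. Listed start positions count from 0 and are given here counted from 1.

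The transcript with the highest mean FPKM stood for its gene, and the 10950 genes above 0 in all 12 samples were tested on log2(FPKM + 0.1) with limma 3.58.1 (R 4.3.3, eBayes with trend, two-sided, Benjamini-Hochberg over all genes, no block). Called genes had an adjusted p below 0.05 and group means at least 1.5-fold apart. Depth came from a fit over transcript length of low FPKM values taken as single fragments. As a check of that depth, 99.36% to 99.88% of values of up to 6 fragments per sample were whole within 0.05. Fragment numbers cover counting error only. Per the study, the 6 experiments were independent and used ARVMs of different rats. Deviations of same-numbered samples from their group means correlated in all 6 pairs (0.347 to 0.623), so the numbers were taken to pair the samples, and the block was an alternative. Correlations between different numbers were not compared. The check therefore cannot tell pairing from a spread that several numbers share, and the counts by pair and the block rest on that assumption. The other alternatives were pseudocounts of 1 and 0.01, no filter, a mean of at least 1 FPKM, the TPM scale, quantile normalization, no trend, summed transcripts, other fold limits and each sample left out. In simulated data with 200 of 10950 genes changed by a log2 of 1.5, 195 of them and 2 unchanged genes were called, and with no change 0. That change is larger than the one of any called member in the main fit, and the noise was drawn independently between samples. The simulation therefore does not measure power or error for changes of the size called here.

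Sample values were given for called members and those with a mean of at least 5 FPKM in either group. Of the related lists, called genes were named, and Atf4 and Asns were added after their values were seen. Of the members, 1 is counted but not reported here by itself. The members, the lists and the named genes were chosen with earlier results of these data known. Promoter windows came from RefSeq tables of GRCr8. Python 3.11.15 with NumPy 2.4.6 and pandas 2.3.3 was used for tables, and Matplotlib 3.10.9 for plots.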

Additional observations from a re-analysis of the deposited data

Results flagged for a closer look

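Among the 23 members with values by sample, 46 groups of 6 were examined by Dixon's test, and 3 held a sample far from the others, where chance alone marks about 1 in 20 groups. Slc38a1 in Ad-h-NR4A2 sample 24 was 82.8 FPKM, against 94.9 to 101 in the other 5. Slc38a4 in Ad-h-NR4A2 sample 29 was 1.40 FPKM, against 0.620 to 0.889. Slc3a1 in Ad-GFP sample 25 was 0.279 FPKM, against 0.113 to 0.151. All 3 members kept their calls without these samples.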

How the results depend on the processing

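Other fold limits aside, all 11 called members kept their direction and call under every alternative that gave a value for them, including each sample left out. Of 685 values of single members under these alternatives, 678 stayed on the same side of the limits. The other 7 passed them newly (Slc6a6, Slc38a6 and Slc7a8), and 0 were lost or reversed. The members called higher numbered 5, but 2 with a mean of at least 1 FPKM, since 3 are below that mean, and 2 with a fold limit of 2. Those called lower numbered 6, but 11 without a fold limit and 5 with a limit of 2. At a limit of 2, Slc38a1, Slc36a4, Slc3a1 and Slc38a3 lost their calls. The related genes called numbered 8, but 32 without a fold limit and 3 with a limit of 2. The replicate block left the calls at 5 higher and 6 lower, with 8 in the related lists, and changed no call of a member. Counts of 3 to 39 fragments per sample limit Slc1a7, Slc7a3 and Slc3a1. Their log2 fold changes moved with the pseudocount, from 1 to 0.01 FPKM, and ran from -0.27 to -1.41 for Slc1a7, from 0.45 to 1.64 for Slc7a3, from 0.16 to 0.86 for Slc3a1 and from 0.32 to 3.08 for Slc7a2. A larger pseudocount shrinks the fold change of low genes by construction.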
